A study of Homo sapiens with 9 samples.

Results

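The actomyosin contractility and SRF target genes are 46 genes of the contractile actin cytoskeleton and its transcriptional control, of 26475 gene symbols in the count table. They were taken by symbol, whatever their values, and are 4 actins, 6 myosin chains, 4 tropomyosins and the troponin TNNT1, 5 calponins and transgelins, 4 thin filament and smooth muscle regulators, 4 crosslinkers, 3 formins, 4 regulators of the myosin light chain, 8 genes of the cofilin pathway and of actin monomer binding, and SRF with its cofactors MKL1 and MKL2, now named MRTFA and MRTFB. All 46 had enough counts to be tested among 13784 genes. RNA was read in hTERT_RPE1 cells, a line of human retinal pigment epithelium made immortal with telomerase, in 3 conditions of 3 libraries, all 24 h after seeding on a fibronectin coat. Control cells carried the empty pLKO vector on glass, sh_PIP4K2B cells carried 1 of 3 hairpins against the lipid kinase PIP4K2B on glass (1 library per hairpin, #1, #2 and #3), and Soft cells carried the empty vector on a 2.3 kPa gel. The treatment label of Control and Soft cells names a Ctrl shRNA where the titles name the empty vector. The sh_PIP4K2B libraries came from cells with different hairpins, so their spread holds that between hairpins and between single libraries, which cannot be told apart. No source says that the Control or the Soft libraries came from separate cultures, so the spread within these conditions may be technical. Each library held 19217336 to 24020796 counts. PIP4K2B was at 123, 124 and 119.5 CPM (counts scaled to library size with TMM) in Control, at 48.4, 40.9 and 36.6 with hairpins #1, #2 and #3, and at 119, 122 and 127 in Soft.

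Stress fibres are bundles of actin filaments held together by crosslinkers and pulled by non-muscle myosin II, whose activity follows the phosphorylation of its regulatory light chain by ROCK and myosin light chain kinase. The MRTF cofactors bind actin monomers and are held back by them. When monomers are built into filaments, MRTF is freed, binds SRF at CArG boxes in promoters and switches on actin, transgelin, vinculin and related genes, so the pathway couples the state of the actin cytoskeleton to the genes that build it. The same factor SRF acts with another family of cofactors, the TCFs, on immediate early genes. In cultured epithelial cells the contractile genes are known to be expressed more on stiff than on soft supports.

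The CArG box is the DNA motif that SRF binds. The sequences below show it in promoters of members that fell in Soft in the fit over all 9 libraries (edgeR) and of members that did not pass in it. It was searched in windows of 300 bases (250 before to 50 after a gene start, RefSeq, GRCh38.p14), and since the motif is its own reverse complement 1 search covers both strands. Of 42 members with a window 11 had a box in at least 1 window, against 438 of 27305 genes in all (1.6%). By window these were 11 of 80 for the members and 454 of 35116 for all genes (1.29%). The members include genes known as SRF targets, so their share describes how they were chosen. Capitals mark the box, and each stretch runs 5′ to 3′ on the strand of the gene with 40 bases on either side. The first 4 genes fell in Soft in that 9-library fit.
ACTG2, chr2:73892858-73892984, plus strand: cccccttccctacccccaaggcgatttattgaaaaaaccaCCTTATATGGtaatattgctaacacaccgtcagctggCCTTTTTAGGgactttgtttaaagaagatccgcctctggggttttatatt
ACTN1, chr14:68977688-68977777, minus strand: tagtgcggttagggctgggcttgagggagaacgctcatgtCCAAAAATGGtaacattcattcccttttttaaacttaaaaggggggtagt
SMTN, chr22:31084912-31085001, plus strand: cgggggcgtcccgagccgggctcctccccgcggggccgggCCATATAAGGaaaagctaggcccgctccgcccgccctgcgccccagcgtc
FLNA, chrX:154374679-154374768, minus strand: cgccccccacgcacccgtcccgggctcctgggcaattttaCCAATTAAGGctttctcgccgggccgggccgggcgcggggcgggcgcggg
SRF, CNN2, MYLK and TGFB1I1 also hold a box and did not pass the test against Control in either direction in the 9-library fit. In a fit of the Control and Soft libraries alone all of them passed (adjusted p at most 7.5e-04, edgeR). There SRF and CNN2 were lower in Soft (log2 fold change -0.26 and -0.22), and MYLK and TGFB1I1 were higher (0.51 and 0.37).
SRF, chr6:43171199-43171308, plus strand: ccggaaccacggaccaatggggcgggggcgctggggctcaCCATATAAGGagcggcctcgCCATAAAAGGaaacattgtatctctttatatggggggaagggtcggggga
CNN2, chr19:1026479-1026568, plus strand: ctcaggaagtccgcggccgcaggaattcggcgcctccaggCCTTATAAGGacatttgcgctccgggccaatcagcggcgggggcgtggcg
MYLK, chr3:123620593-123620682, minus strand: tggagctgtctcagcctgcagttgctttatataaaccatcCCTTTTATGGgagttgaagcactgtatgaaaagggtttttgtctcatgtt
TGFB1I1, chr16:31473114-31473203, plus strand: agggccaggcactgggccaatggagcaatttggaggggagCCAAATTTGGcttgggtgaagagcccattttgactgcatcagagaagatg
ACTG2 and SRF hold 2 boxes each, at 110 and 73 bases before the start in ACTG2 and at 30 and 10 bases in SRF. The window of MYLK lies near the 3′ end of the gene, at the start of a short transcript. Those of SMTN, ACTN1, TGFB1I1 and SRF are at only 1 of the starts of the gene. ACTG1, TPM4 and ROCK2 were the other members with a box. No window was matched for ACTB, TAGLN, MYL9 and PFN2. In the 9-library fit 4 of the 11 members with a box fell in Soft, with a median log2 fold change of -0.48. Of the 31 with a window and no box 10 fell and 2 rose, with a median of -0.61. These letters in these windows are a description and show no binding.

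In Soft the contractile genes were low as a group. Against Control 17 of the 46 members fell, 2 rose and 27 did not pass an adjusted p of 0.01 (quasi-likelihood test of edgeR, with p-values adjusted over all genes by the Benjamini-Hochberg method). Of all genes tested 14.8% fell and 15.8% rose. DESeq2 called 23 members lower and 4 higher (19.7% and 19.8% of all genes). The members that fell were ACTB, ACTG2, ACTN1, ACTN4, TAGLN, MYL9, MYL12A, TPM3, COTL1, DSTN, DIAPH1, DIAPH3, FLNA, FLNC, ROCK1, PPP1R12A and SMTN, and those that rose were MYH10 and TNNT1. The median log2 fold change of the members was -0.62 and that of all genes 0.01, and 37 of 46 were below 0. All 3 Soft libraries were below all 3 Control libraries for 36 members and above them for 8, where 39.1% and 40.4% of all genes did so. In bulk RNA fewer cells of a type and less RNA per cell cannot be told apart.

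The fit over 9 libraries shares 1 estimate of the spread, and that spread was far larger between hairpins than within the other conditions. The median SD of log2 CPM over the members was 0.04 between Control libraries, 0.43 between hairpins and 0.05 between Soft libraries. In a fit of the 6 Control and Soft libraries alone 35 members fell and 8 rose (35.2% and 35.5% of all genes, edgeR), that is every member but CNN1, MKL1 and LIMK2. The median log2 fold change of the members in that fit was -0.63. The p-values of that fit, here and below, rest on the spread within Control and Soft, which may be technical. Those of the 9-library fit, for Soft and for hairpins, rest on that spread in part. In the 9-library fit ACTN1, TAGLN, MYL9, MYL12A, DSTN, DIAPH1, DIAPH3, FLNC and SMTN passed in Soft under all 17 alternative settings. The other 10 calls were lost when any Control or Soft library was left out, except that PPP1R12A passed without Control library 1, and 9 to 10 members then fell. Of all genes 1158 to 1366 fell in those fits.

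With PIP4K2B hairpins 3 members fell, DIAPH1, FLNA and TNNT1, and none rose in the edgeR fit (2.77% of all genes fell and 2.76% rose). The fall of DIAPH1 was lost when any Control library was left out and those of FLNA and TNNT1 when any Control or Soft library was, so that 0 members fell without a Control library. DESeq2 called 11 members lower and none higher (7.1% and 7.89% of all genes), and by edgeR 16 members had an unadjusted p under 0.05 and a negative fold change and 0 a positive one (14.2% and 19% of all genes). The log2 fold change was below 0 for 41 of 46 members with a median of -0.35, against 0.05 over all genes. That median was -0.22 without hairpin #1 and -0.46 without hairpin #2. For 18 members all 3 hairpin libraries were below all 3 Control libraries, and for none were they all above (16.7% and 17.4% of all genes).

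The libraries of the 3 hairpins, 1 per hairpin, stood apart from each other. The median log2 ratio of the members to the Control mean was -0.88 with hairpin #1, -0.09 with hairpin #2 and -0.42 with hairpin #3, and between -0.65 and -0.58 in the Soft libraries. More than 2-fold below the Control mean were 18 members with hairpin #1, 1 with hairpin #2 (CNN1, which is near the limit of detection) and 6 with hairpin #3, and no member was so with all 3. In Soft 11 members departed more than 2-fold from it in each of the 3 libraries. Of all genes 1.58% did so the same way with all 3 hairpins and 17.2% in all 3 Soft libraries. A departure of that size with at least 1 hairpin was seen for 20 of 46 members and for 3990 of 13784 genes. In at least 1 Soft library it was seen for 13 members and 3668 genes. Shares of all genes for each single hairpin were not counted, so the 18, 1 and 6 members stand without a background. The members took 4.24% to 4.38% of the counts in Control, 2.65%, 3.95% and 3.30% with hairpins #1, #2 and #3, and 2.86% to 2.92% in Soft. Without hairpin #2 16 members fell and 1 rose against Control (6.93% and 7.48% of all genes), without #1 7 fell and 0 rose (5.63% and 6.24% of all genes), and without #3 9 fell and 0 rose (6.39% and 6.3%). PIP4K2B itself, given above, was lowest with hairpin #3.

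**Figure D1:**
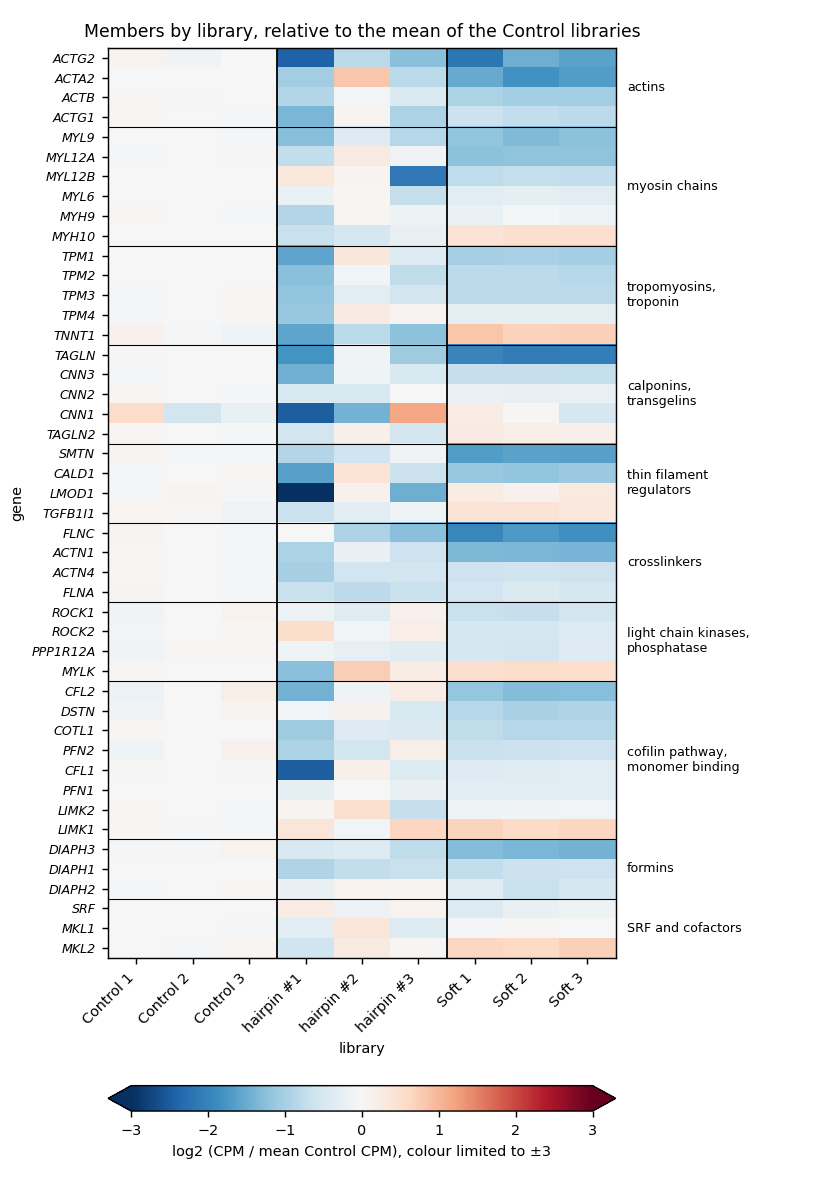
Log2 ratio of the CPM of each of the 46 members (rows, by role) to the mean of the 3 Control libraries, in each of the 9 libraries (columns), with the colour limited to 3 in either direction. The Soft columns are close to each other and mostly blue, hairpin #1 is blue for 40 of 46 members, and hairpin #2 is near 0 with a median of -0.09.

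SRF and its cofactors were measured first, as the regulators. None of the 3 passed the edgeR test in either comparison, at an unadjusted p under 0.05 0 did with hairpins and 1 in Soft, MKL2, and DESeq2 called 0 and 1. Of all 13784 genes 4574 had an unadjusted p under 0.05 with hairpins and 7491 in Soft (edgeR). SRF (chr6:43171269-43181506), the DNA-binding factor, was at 76.7, 75.8 and 76.9 CPM in Control, at 89.4, 67.2 and 81.9 with hairpins #1, #2 and #3 and at 57.7, 66.0 and 68.8 in Soft. The Soft values lay below the Control values and those of the hairpins lay on both sides of them. Its log2 fold change was 0.06 (SE 0.12) with hairpins and -0.25 (SE 0.12, adjusted p = 0.12, edgeR) in Soft. MKL1 (MRTFA), a cofactor held by actin monomers, was at 52.06, 52.14 and 50.03 CPM in Control, 41.2, 66.1 and 38.9 with the hairpins and 49.9, 52.3 and 52.2 in Soft, and all conditions overlapped. MKL2 (MRTFB), its relative, was at 19.7, 19.4 and 20.7, 13.2, 23.9 and 20.5 and 30.7, 30.3 and 33.0 CPM. All 3 Soft values of MKL2 were above all other libraries (log2 fold change against Control 0.65, SE 0.19, adjusted p = 0.018, edgeR), which passed 0.01 in the fit of Control and Soft alone (adjusted p = 1.3e-07, edgeR). In that fit SRF also passed, lower in Soft (log2 fold change -0.26, SE 0.06, adjusted p = 7.5e-04, edgeR), and MKL1 did not (adjusted p = 0.95, edgeR).

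The cytoplasmic actins ACTB and ACTG1 form most filaments of non-muscle cells. ACTB (chr7:5526409-5563902) measured 8107, 7796 and 7942 CPM in the Control libraries, 4346, 7784 and 5925 with hairpins #1, #2 and #3, and 4099, 3892 and 3885 in Soft. Every Soft value was under the lowest hairpin, #1, and hairpin #2 lay just under Control. ACTB fell by 50.2% in Soft, from 7948 ± 156 to 3959 ± 122 CPM (SD, n = 3), with a log2 fold change of -1.01 (SE 0.20, adjusted p = 0.0029, edgeR), and with hairpins ACTB had -0.40 (SE 0.20, adjusted p = 0.19, edgeR). ACTG1 measured 6195, 5845 and 5704 CPM in Control, 2288, 6303 and 3058 with the hairpins and 3764, 3540.5 and 3424 in Soft, so that hairpins #1 and #3 were below the Soft libraries and hairpin #2 was above Control. Its log2 fold changes of -0.61 (SE 0.31) and -0.73 (SE 0.31) did not pass in the 9-library fit (adjusted p = 0.21 and 0.085, edgeR).

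The smooth muscle actins were less abundant than the cytoplasmic ones. ACTA2 (chr10:88935074-88991339), the actin of smooth muscle and of myofibroblasts and a classical target of SRF, was at 156, 155 and 152 CPM in Control, 74.96, 274 and 87.8 with hairpins #1, #2 and #3 and 54.3, 43.95 and 48.6 in Soft. Hairpin #2 was the highest of the 9 libraries and hairpins #1 and #3 were between Control and Soft. Against Control the log2 fold change was -0.09 (SE 0.41) with hairpins and -1.66 in Soft (SE 0.42, adjusted p = 0.0103, edgeR), just over the threshold, and in the fit of Control and Soft alone its adjusted p was 2.1e-12 (edgeR). ACTG2, the enteric smooth muscle actin, was at 3.96, 3.42 and 3.67 CPM in Control, 0.691, 2.12 and 1.53 with the hairpins and 0.821, 1.33 and 1.21 in Soft, with every hairpin and every Soft value under the Control range. It fell in Soft (log2 fold change -1.71, SE 0.36, adjusted p = 0.004, edgeR), and with hairpins its log2 fold change was -1.35 (adjusted p = 0.031, edgeR).

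**Figure D2:**
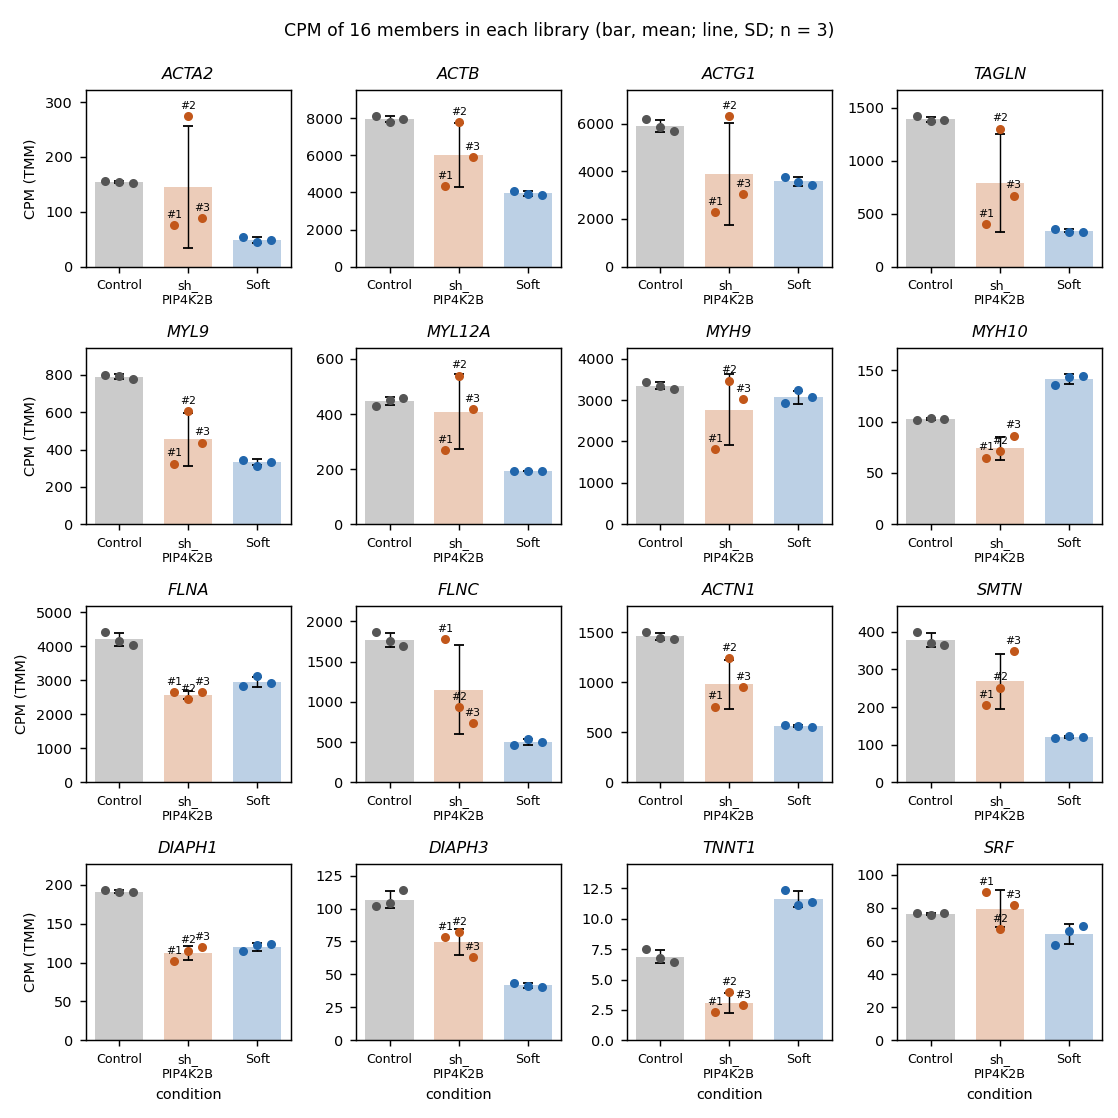
CPM of 16 members by condition, with a point for each library, a bar at the mean and a line of 1 SD (n = 3 per condition); hairpins are numbered. The axes start at 0 and differ between genes. Soft points lie close together for each gene, and for TAGLN, ACTA2 and ACTG1 hairpin #2 lies apart from hairpins #1 and #3.

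Of the 6 chains of non-muscle myosin II 2 light chains fell in Soft, 1 heavy chain rose and 3 chains did not pass. MYL9 (chr20:36541497-36551447), a regulatory light chain, was at 799, 792 and 774 CPM in Control, 325, 605 and 437 with hairpins #1, #2 and #3 and 346, 314 and 335 in Soft. All hairpin and Soft values were under Control, with hairpin #2 nearest to it. It fell by 58.0% in Soft (log2 fold change -1.25, SE 0.20, adjusted p = 8.7e-04, edgeR), and with hairpins its log2 fold change was -0.79 (adjusted p = 0.025, edgeR). MYL12A, another regulatory light chain gene, was at 431, 452 and 460.1 CPM in Control, 269, 539.8 and 417 with the hairpins and 192, 193 and 194 in Soft. Hairpins #1 and #3 and the Soft libraries were under the Control range and hairpin #2 was above it, and the fall in Soft passed the test (log2 fold change -1.21, SE 0.21, adjusted p = 0.0015, edgeR). MYL12B, which lies beside MYL12A on chromosome 18, was at 486 ± 2.91 CPM in Control (SD, n = 3), at 603 and 515 CPM for hairpins #1 and #2 and at 109 CPM for hairpin #3, and its log2 fold change in Soft was -0.74 (SE 0.47, adjusted p = 0.22, edgeR). Its Soft values of 288, 295 and 291 CPM were all under Control. In the fit of Control and Soft alone MYL12B passed (adjusted p = 2.3e-11, edgeR). MYL6, the essential light chain, had -0.25 with hairpins and -0.29 in Soft on the log2 scale.

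The heavy chains MYH9 and MYH10 give the A and B isoforms of non-muscle myosin II. MYH9 was at 3441, 3329 and 3270.1 CPM in Control, 1822, 3466 and 3019 with hairpins #1, #2 and #3 and 2921, 3233 and 3061 in Soft. Hairpin #1 stood alone at the bottom, and the Soft range was just under the Control range (log2 fold change -0.27, SE 0.21, with hairpins and -0.12, SE 0.21, in Soft). MYH10 was at 102, 103 and 103 CPM in Control, 64.9, 70.9 and 86.4 with the hairpins and 135, 143 and 145 in Soft. All hairpins were below Control and all Soft libraries above it. MYH10 rose in Soft (log2 fold change 0.46, SE 0.12, adjusted p = 0.00993, edgeR), with hairpins it did not pass (-0.47, SE 0.12, adjusted p = 0.025, edgeR), and the Soft and sh_PIP4K2B values differed (0.93, SE 0.12, adjusted p = 2.8e-04, edgeR).

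Among the regulators of the myosin light chain, ROCK1, a kinase that phosphorylates the light chain and inhibits its phosphatase, and PPP1R12A, the targeting subunit of that phosphatase, fell in Soft (log2 fold change -0.63, SE 0.13, adjusted p = 0.0038, and -0.48, SE 0.10, adjusted p = 0.0042, edgeR). ROCK1 measured 109, 115 and 126 CPM in Control, 105, 90.3 and 127 for hairpins #1, #2 and #3 and 73.2, 72.5 and 79.5 in Soft. PPP1R12A measured 87.97, 96.6 and 99.2 CPM in Control, 86.1, 80.1 and 73.4 for the hairpins and 66.1, 64.9 and 71.97 in Soft. Soft was below the other 6 libraries for both genes, and the hairpins overlapped Control for ROCK1 and lay under it for PPP1R12A. ROCK2, the paralog of ROCK1, had 0.24 with hairpins and -0.48 in Soft (adjusted p = 0.024, edgeR). MYLK, the calcium-dependent light chain kinase, had 0.12 and 0.52 with SEs of 0.37 and 0.38, and its hairpin values of 131, 524 and 364 CPM ran from under to over the Control values of 317, 311 and 308 CPM. None of the 4 passed the edgeR test with hairpins (1 had an unadjusted p under 0.05, and DESeq2 called 0). Of the 75-mers of the ROCK1 transcript 9.89% also occur in other genes, chiefly ROCK1P1, so its counts may be split.

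Tropomyosins run along the actin filament and set which myosins and severing proteins can reach it. TPM3 measured 698, 721 and 740.0 CPM in Control, 317, 576 and 492 for hairpins #1, #2 and #3 and 411, 414 and 419 in Soft, so the hairpin and Soft libraries were all under Control and overlapped each other. TPM3 fell in Soft (log2 fold change -0.80, SE 0.19, adjusted p = 0.0077, edgeR). TPM1, TPM2 and TPM4 had -0.998, -0.81 and -0.28 in Soft and did not pass at 0.01. With hairpins the 4 ran from -0.64 (TPM3) to -0.16 (TPM4), and TPM1, at 1666 ± 14.8 CPM in Control (SD, n = 3), had values of 559, 2097 and 1270.2 CPM for hairpins #1, #2 and #3. TNNT1 (chr19:55132698-55149206), the slow skeletal troponin T that binds tropomyosin in striated muscle, was the 1 member that passed in opposite directions in the 2 comparisons with Control. It was at 7.50, 6.76 and 6.42 CPM in Control, 2.30, 3.95 and 2.92 with the hairpins and 12.4, 11.1 and 11.4 in Soft. The 3 conditions did not overlap, with every hairpin below Control and every Soft library above it. It fell with hairpins (log2 fold change -1.17, SE 0.20, adjusted p = 0.0049, edgeR) and rose in Soft (0.75, SE 0.18, adjusted p = 0.0087, edgeR). Over the 17 alternative settings the adjusted p reached 0.099 with hairpins and 0.042 in Soft, and both calls were lost when any Control or Soft library was left out. The direct difference between Soft and sh_PIP4K2B was 1.92 (SE 0.20, adjusted p = 1.0e-04, edgeR) and passed under all 17 alternative settings.

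TAGLN (chr11:117199370-117207464), the actin-bundling transgelin that is among the best known MRTF-SRF targets, had the lowest log2 fold change of all members in Soft. It was at 1419, 1377 and 1381 CPM in Control, 402, 1303 and 669.8 with hairpins #1, #2 and #3 and 354, 327 and 331 in Soft. Hairpin #2 was just under Control, hairpin #1 was near the Soft values and hairpin #3 was between. TAGLN fell by 75.8% in Soft, from 1392 ± 23.1 to 337 ± 14.6 CPM (SD, n = 3), with a log2 fold change of -2.05 (SE 0.35, adjusted p = 0.0013, edgeR). With hairpins its log2 fold change of -0.81 (SE 0.34) did not pass (adjusted p = 0.13, edgeR). Of the 75-mers of its canonical transcript 65.3% also occur in a gene annotated over it on the same strand, so reads can be split between them. TAGLN2, its non-muscle relative, had -0.28 with hairpins and 0.20 in Soft. The calponins CNN2 and CNN3, which stabilise filaments, had -0.21 and -0.70 in Soft and -0.30 and -0.58 with hairpins and did not pass. CNN1, the smooth muscle calponin, was between 0.0921 and 1.14 CPM in all libraries, where a count of 3 in 1 library is 0.131 to 0.148 CPM, and a change was not detectable at this depth.

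Of the thin filament and smooth muscle regulators SMTN fell in Soft and the other 3 did not pass against Control. SMTN (chr22:31064105-31104757), smoothelin, an actin-binding protein of contractile cells, was at 399, 371 and 365 CPM in Control, 206, 252 and 349 with hairpins #1, #2 and #3 and 119, 124 and 121 in Soft. The Soft values lay in a narrow band far under the other 6 libraries (log2 fold change -1.64, SE 0.18, adjusted p = 1.1e-04, edgeR), and with hairpins the log2 fold change was -0.49 (adjusted p = 0.08, edgeR). CALD1, caldesmon, which blocks myosin from actin, had -1.14 in Soft (SE 0.39, adjusted p = 0.038, edgeR). TGFB1I1, the adhesion adaptor Hic-5, and LMOD1, a leiomodin that nucleates filaments, had 0.37 and 0.22 in Soft. LMOD1, at 23.7 ± 1.19 CPM in Control (SD, n = 3), had values of 2.81, 25.8 and 8.65 CPM for hairpins #1, #2 and #3.

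All 4 crosslinkers fell in Soft, and FLNA fell with hairpins too. FLNA (chrX:154348524-154374634), filamin A, which ties filaments into networks and to integrins, was at 4416, 4165 and 4030.2 CPM in Control, 2644, 2443 and 2658 with hairpins #1, #2 and #3 and 2829, 3119 and 2926 in Soft. The 3 hairpins were close together here, under the Soft libraries, which in turn were under Control. FLNA fell by 38.6% with hairpins (log2 fold change -0.70, SE 0.12, adjusted p = 0.0057, edgeR) and it fell by 29.6% in Soft (-0.51, SE 0.12, adjusted p = 0.0073, edgeR). FLNC, the filamin of muscle, was at 1865, 1752 and 1694 CPM in Control, 1782, 934 and 739.7 with the hairpins and 459, 538 and 498 in Soft. Hairpin #1 lay inside the Control range here, in contrast to most members, and the Soft values were the lowest. FLNC fell by 71.9% in Soft (log2 fold change -1.83, SE 0.29, adjusted p = 7.9e-04, edgeR).

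The alpha-actinins ACTN1 and ACTN4 space the filaments of stress fibres. ACTN1 was at 1501, 1444 and 1431 CPM in Control, 757, 1243 and 949 with hairpins #1, #2 and #3 and 570.2, 564 and 554 in Soft. Every Soft library was below every hairpin, and every hairpin below Control. ACTN1 fell by 61.4% in Soft (log2 fold change -1.37, SE 0.17, adjusted p = 2.4e-04, edgeR), and with hairpins it had -0.57 (adjusted p = 0.047, edgeR). ACTN4 measured 1727, 1653 and 1594 CPM in Control, 829, 1105 and 1135 for the hairpins and 1075, 1094 and 1083 in Soft. Its hairpin and Soft values overlapped each other under the Control range. ACTN4 fell in Soft (-0.61, SE 0.14, adjusted p = 0.006, edgeR) and had -0.70 with hairpins (adjusted p = 0.011, edgeR), close to the threshold.

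**Figure D3:**
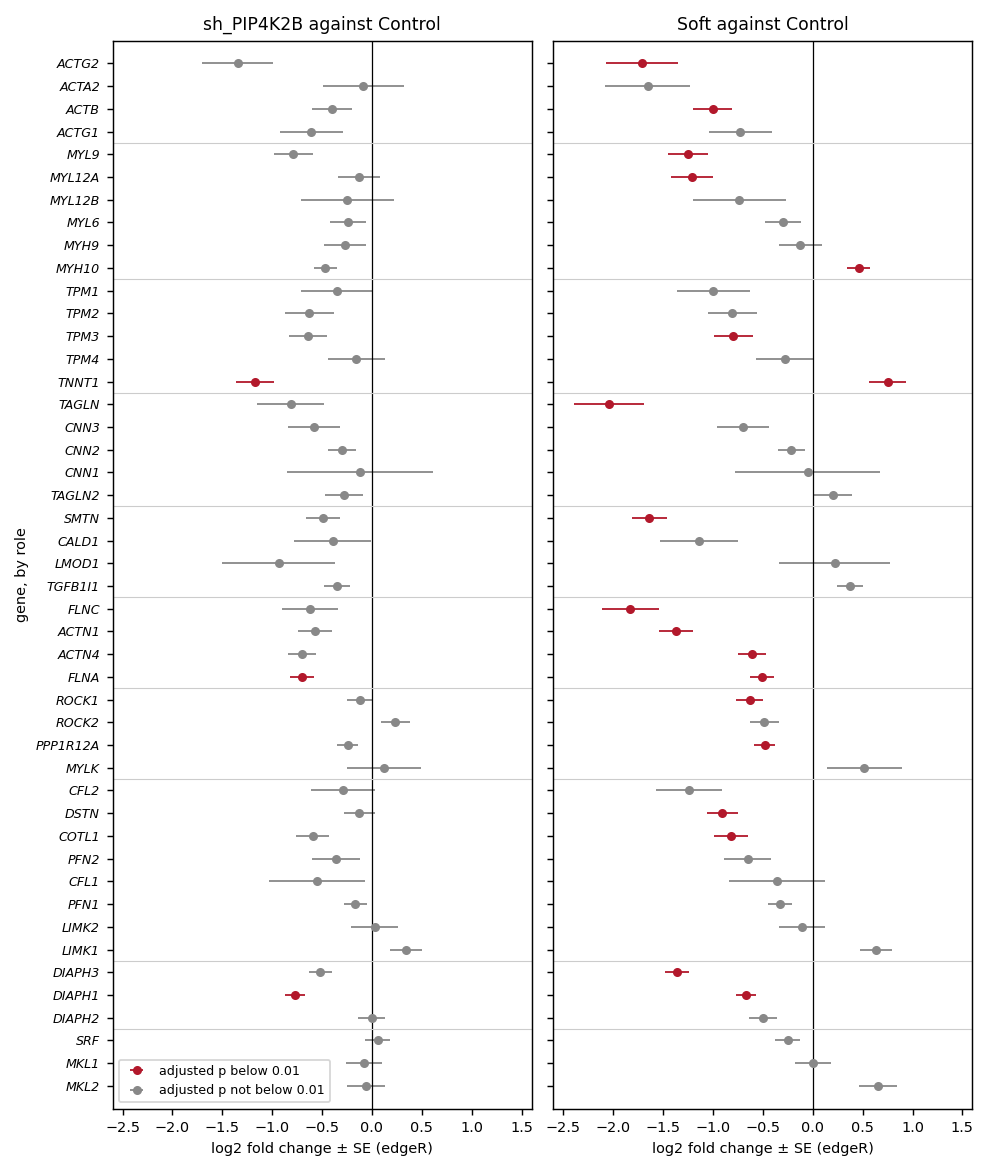
Log2 fold change of each member against Control, with its SE from edgeR, for sh_PIP4K2B (left) and Soft (right). Genes are grouped by role, red points passed an adjusted p of 0.01, and in Soft the 17 red points left of 0 include all 4 crosslinkers.

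Formins lengthen unbranched filaments, and DIAPH1 feeds stress fibres and SRF. DIAPH1 (chr5:141515016-141619055) was at 193, 190.3 and 190.2 CPM in Control, 102, 115 and 119.5 with hairpins #1, #2 and #3 and 115, 122 and 124 in Soft. Hairpin and Soft values overlapped each other and lay well under Control. DIAPH1 fell with hairpins (log2 fold change -0.77, SE 0.10, adjusted p = 0.0016, edgeR) and likewise in Soft (-0.67, SE 0.10, adjusted p = 5.7e-04, edgeR). In the fit of the Control and hairpin libraries alone DIAPH1 did not pass (adjusted p = 0.023, edgeR). Soft against sh_PIP4K2B gave a log2 difference of 0.10 (SE 0.10, adjusted p = 0.42, edgeR). DIAPH3, a formin of filopodia and of dividing cells, was at 102, 104 and 114 CPM in Control, 78.2, 82.2 and 63.2 with the hairpins and 43.5, 41.3 and 40.1 in Soft. Its 3 conditions did not overlap, and it fell in Soft (log2 fold change -1.36, SE 0.12, adjusted p = 4.2e-05, edgeR), with -0.52 for the hairpins (adjusted p = 0.017, edgeR). DIAPH2, the least abundant of them, had -0.50 in Soft (adjusted p = 0.015, edgeR).

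Of the cofilin pathway and the monomer-binding proteins COTL1 and DSTN fell in Soft. DSTN, destrin, which severs filaments as cofilin does, had a log2 fold change of -0.91, SE 0.16, adjusted p = 0.0013 (edgeR), and COTL1, a coactosin that binds filaments, had -0.82, SE 0.17, adjusted p = 0.0034 (edgeR). CFL1, the main cofilin, was at 265 CPM with hairpin #1 against 1473 ± 31.9 CPM in Control (SD, n = 3) and at 1644 and 1116 CPM with the other hairpins. CFL2, its muscle form, had -1.24 in Soft (adjusted p = 0.012, edgeR). The profilins PFN1 and PFN2, which load monomers for formins, had -0.33 and -0.65 in Soft. LIMK1, a kinase that turns cofilin off, had 0.63 in Soft with all Soft libraries above Control (SE 0.16, adjusted p = 0.0101, edgeR), just over the threshold, and LIMK2 had -0.11. With hairpins none of these 8 genes passed by edgeR (1 had an unadjusted p under 0.05 and DESeq2 called 1), and their log2 fold changes ran from -0.60 (COTL1) to 0.34 (LIMK1).

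Levels between genes were compared as CPM per kilobase of the canonical transcript (GENCODE v44, GRCh38). In Control ACTB (4386 CPM per kb) and ACTG1 (3082) were the most abundant members, followed by MYL6 (2251), PFN1 (1587), TPM1 (1369) and TPM2 (1351). Of the myosin heavy chains MYH9 was at 449 CPM per kb and MYH10 at 13.3, and the smooth muscle actins ACTA2 and ACTG2 were at 114 and 2.45. SRF was at 18.1, MKL1 at 11.4 and MKL2 at 2.27 CPM per kb, and CNN1 was last at 0.341. Of the 5 smooth muscle markers read below, MYOCD, MYH11 and DES were at 0 to 0.571 CPM in the 9 libraries and were too low to be tested. MYH11 was at 0.274, 0.571 and 0.223 CPM in Soft and at 0.0931, 0.219 and 0.0437 CPM in Control. The level of TAGLN per length depends on a canonical transcript of 3786 nt of which most overlaps the other gene named above.

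**Figure D4:**
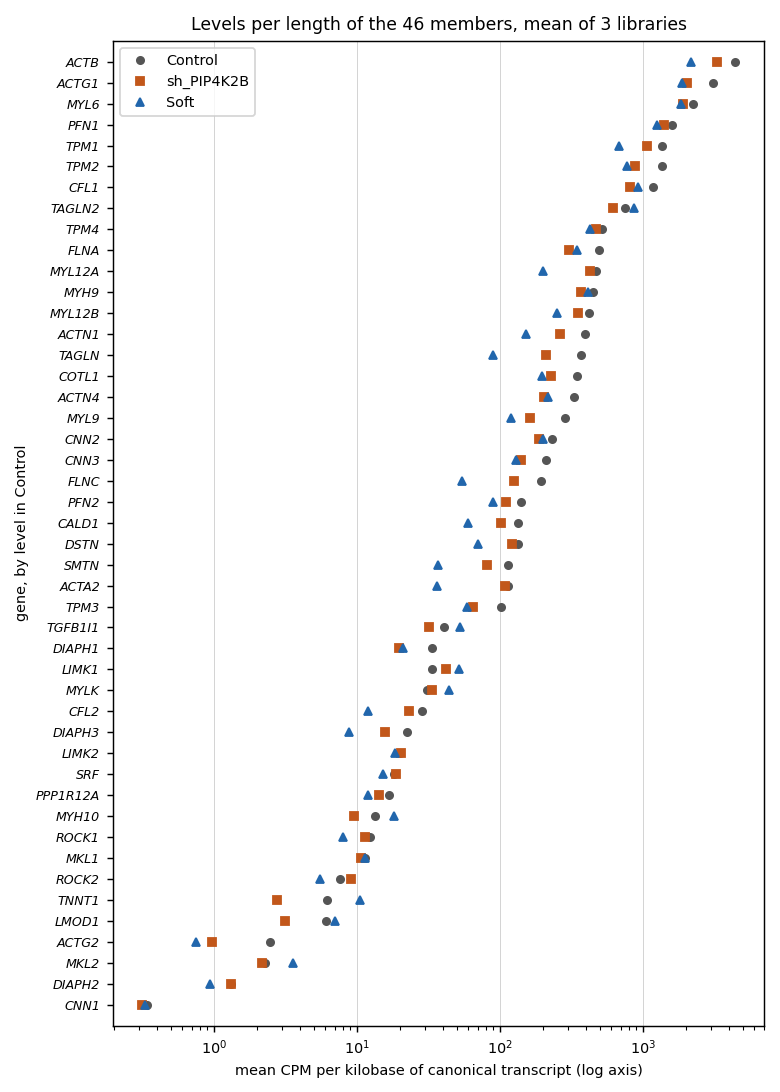
Mean CPM per kilobase of the canonical transcript of the 46 members in Control, sh_PIP4K2B and Soft (3 libraries each, log axis), in the order of the Control level. The members span from 0.341 (CNN1) to 4386 (ACTB) in Control, and Soft symbols lie left of Control for most.

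Soft and sh_PIP4K2B were also set against each other, which tests the difference between their departures from Control. In Soft 7 members were lower than with hairpins and 3 were higher (15.5% and 14.5% of all genes), with a median log2 fold change of -0.17 against -0.03 over all genes. That median was -0.033 without hairpin #2 and -0.41 without hairpin #1. The lower ones by edgeR were FLNC (-1.21, adjusted p = 0.0067), SMTN (-1.15, adjusted p = 7.3e-04), MYL12A (-1.08, adjusted p = 0.0029), DIAPH3 (-0.84, adjusted p = 4.9e-04), ACTN1 (-0.80, adjusted p = 0.0041), DSTN (-0.78, adjusted p = 0.003) and ROCK2 (-0.72, adjusted p = 0.0038). All of them were also lower in Soft than in Control, where ROCK2 did not pass. The higher ones by edgeR were TNNT1 (1.92, adjusted p = 1.0e-04), MYH10 (0.93, adjusted p = 2.8e-04) and TGFB1I1 (0.72, adjusted p = 0.0019), which all had negative log2 fold changes with hairpins and positive ones in Soft. A p that misses the threshold does not show for the other 36 members that the 2 conditions act alike. In a fit of these 2 conditions alone 2 were lower and 2 higher (8.13% and 7.98% of all genes). Leaving out 1 library, 2 were lower without any Soft library and 19 without hairpin #1, and 7 were higher without hairpin #2. Of all genes 1159 to 1185 were lower without a Soft library and 2884 of 13990 without hairpin #1. Without hairpin #2 2265 of 13974 genes were higher. Only DIAPH3, MYH10, SMTN and TNNT1 passed under all 17 alternative settings.

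Genes of the wider pathway that are not members were read from 4 lists, whose counts stand against the shares of all genes given above, 14.8% lower and 15.8% higher in Soft and 2.77% and 2.76% with hairpins (edgeR). Of 16 other MRTF-SRF targets tested 8 fell and 1 rose in Soft (edgeR, median log2 fold change -0.78), with ANKRD1 (-3.44, SE 0.30, adjusted p = 4.4e-05) lowest and CSRP2 (0.65, SE 0.11, adjusted p = 0.0013) the one that rose. With hairpins 3 fell and none rose (median -0.44, by unadjusted p under 0.05 6 lower and 0 higher, by DESeq2 5 and 0), from CSRP1 (-1.02, SE 0.17, adjusted p = 0.0057) to TUBB6 (-0.57, SE 0.10, adjusted p = 0.0057) by edgeR. ANKRD1, a nuclear ankyrin repeat protein also known as a target of YAP, was at 1213, 1241 and 1244 CPM in Control, 580.2, 1342 and 668 with hairpins #1, #2 and #3 and 99.0, 127 and 115 in Soft. Its Soft values were far under the rest, and hairpin #2 was above Control. The paper measured ANKRD1 and CTGF, which is also on this list and fell in Soft, as YAP target genes. The part of YAP in the values of this list was not tested. The next list holds immediate early genes, which SRF controls with TCFs. Of 10 tested 3 rose in Soft and 2 with hairpins, none fell, and the medians were 1.62 and 1.45. In Soft 3 had a log2 fold change below 0, IER2 (-0.05), MCL1 (-0.08) and ARC (-2.26, adjusted p = 0.10, edgeR). ARC was at 0.0894 to 0.137 CPM in Soft, near the floor of 3 counts, and at 0.393 to 0.746 in Control. At an unadjusted p under 0.05 7 were higher and 0 lower in each comparison, and DESeq2 called 5 higher in Soft, 4 with hairpins and 0 lower. Of all genes 7491 of 13784 had an unadjusted p under 0.05 in Soft, in either direction, and with hairpins 19% were higher and 14.2% lower (edgeR). DESeq2 called 19.8% of all genes higher and 19.7% lower in Soft, and 7.89% and 7.1% with hairpins.

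FOSB and JUNB, subunits of the AP-1 factor, rose in both conditions, and EGR3, a zinc finger factor, in Soft. By edgeR the highest and lowest that passed were FOSB (2.41, SE 0.37, adjusted p = 7.4e-04) and JUNB (1.66, SE 0.32, adjusted p = 0.0023) in Soft and FOSB (1.92, SE 0.37, adjusted p = 0.0094) and JUNB (1.74, SE 0.32, adjusted p = 0.0074) with hairpins. JUNB was at 32.1, 31.4 and 32.3 CPM in Control, 148, 49.999 and 122 with hairpins #1, #2 and #3 and 102, 103 and 97.1 in Soft, so hairpin #2 was again the one nearest to Control. Of 18 genes of the Arp2/3 complex, which branches filaments, and its activators 6 fell and 1 rose in Soft, between ACTR2 (-1.11, SE 0.19, adjusted p = 0.0014) and ARPC1B (0.38, SE 0.10, adjusted p = 0.00987) by edgeR. With hairpins none of them passed in edgeR, where 6 were lower and 2 higher at an unadjusted p under 0.05, and DESeq2 called 3 lower and 2 higher. Of 22 genes of actin turnover and capping 5 fell and 6 rose in Soft, between CAPZA1 (-1.03, SE 0.21, adjusted p = 0.0035) and SVIL (2.29, SE 0.16, adjusted p = 1.2e-05) by edgeR. With hairpins none of them passed in edgeR, where 5 were lower and 3 higher at an unadjusted p under 0.05, and DESeq2 called 3 lower and 0 higher.

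**Figure D5:**
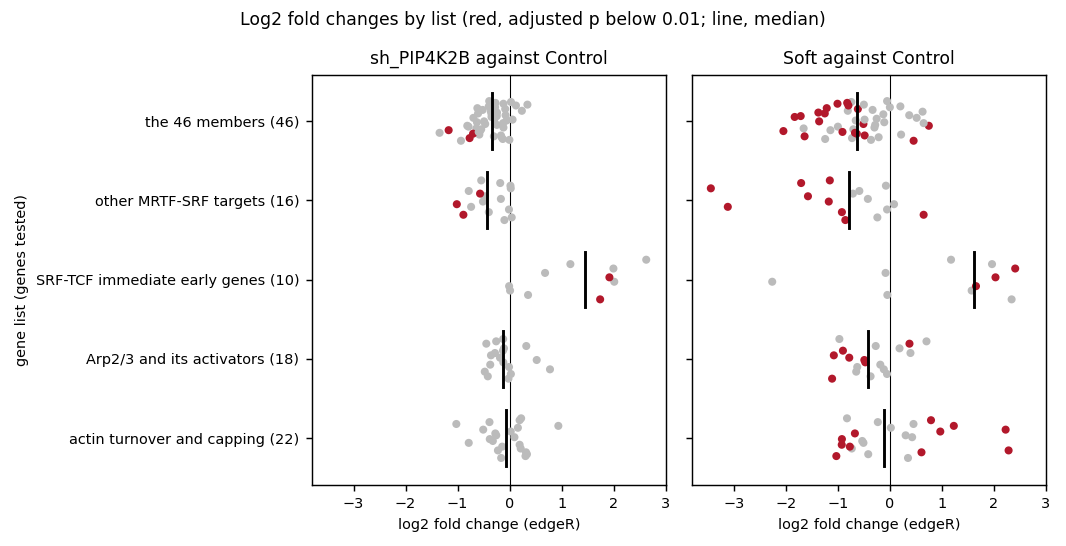
Log2 fold change against Control (edgeR) of each tested gene of the members and of 4 other lists of the pathway, for sh_PIP4K2B (left) and Soft (right), with red points past an adjusted p of 0.01 and a line at each median. The medians of the members were -0.35 and -0.62, and those of the immediate early genes 1.45 and 1.62.

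Markers of cell types were read beside these results. Of all genes 15.8% rose and 14.8% fell in Soft, and 2.76% and 2.77% did with hairpins (edgeR). DESeq2 called 19.8% higher and 19.7% lower in Soft. Of 6 fibroblast markers 5 rose in Soft (edgeR). The other 1 went down with a log2 fold change of -2.16, which did not pass by edgeR and was called lower by DESeq2. None passed with hairpins (2 were higher at an unadjusted p under 0.05, 1 by DESeq2, against 19% and 7.89% of all genes). The summed level of the 6 was 133 to 144 CPM in Control, 181 to 401 with hairpins and 303 to 320.4 in Soft, most of it COL1A1. COL1A2, a defining gene of that list, was at most 0.931 CPM in every library, and none of the 6 was at 0 in all libraries. Of 11 markers of retinal pigment epithelium TTR was at 0 in all libraries, RPE65 and TYR were at most 0.0494 CPM, and the summed level was 1972 to 2120.2 CPM in Control, 755 to 1163 with hairpins and 959 to 1009.8 in Soft, nearly all of it the keratins KRT8 and KRT18. Of its 6 markers tested 2 rose (BEST1 and OTX2) and 2 fell (KRT8 and KRT18) in Soft, with a median log2 fold change of 0.28, and 1 rose (OTX2) and 1 fell (KRT18) with hairpins, with a median of 0.09 (edgeR). Of 9 striated muscle markers 4 were at 0 in all libraries and the sum was at most 7.17 CPM, and of 5 smooth muscle markers 1, MYOCD, was at 0 in all libraries and the sum was at most 4.10 CPM (1.66 to 2.19 in Control, 1.38 to 2.52 with hairpins and 3.62 to 4.10 in Soft). The part of any of these in the members' values was not tested.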

How the data were processed

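Stranded mRNA libraries were read in pairs, and the authors aligned the reads to GRCh38/hg38 with STAR. The submitters' processing notes also name Salmon, and the annotation, the counting tool and its strand setting are not given in the sources used here. The deposited values are estimated counts per gene symbol and library, of which 12.3% were not whole, and they were rounded here. Libraries held 19217336 to 24020796 counts, and 3 counts, taken as the floor of detection in 1 library, are 0.131 to 0.148 CPM. Floors cover counting error only.

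Groups followed the labels. The 9 libraries were fitted together with edgeR 4.0.16 (quasi-likelihood test, TMM scaling, filterByExpr) in R 4.3.3, and p-values were adjusted by the Benjamini-Hochberg method over 13784 genes with a threshold of 0.01. SEs were taken from the fold change and the F statistic. Alternatives were DESeq2 1.42.0, limma 3.58.1 (voom with a quality weight for each condition), fits of only the conditions compared, other scalings and filters, a replicate block, leaving out each library, and a threshold of 0.05. Same-numbered libraries of different conditions did not deviate together (correlations of -0.12 to 0.04 over genes). The titles number the empty vector alike in Control and Soft, but no source says that the numbers mark pairs, so they were not taken as pairs. On simulated counts for Soft against Control with 200 of 13784 genes changed 2-fold, edgeR recovered 121 with 2 false calls, DESeq2 130 with 6 and voom 116 with 2. The simulated libraries had the same spread in every condition, unlike the data, so these figures do not give the recovery in the data.

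The members and the other gene lists were chosen with earlier results of these data known. Values in every library are given for members past the threshold with hairpins, for the 8 highest and 8 lowest log2 fold changes among those past it in Soft, for ACTA2, ACTB, ACTG1, TAGLN, MYL9, MYH9, SRF, MKL1 and MKL2, and for members that passed with opposite signs. JUNB, ANKRD1 and a few members with scattered hairpin values were added after their values were seen, and CTGF was named then too. Of the other lists the highest and lowest that passed are named. Coordinates and transcript lengths are from GENCODE v44 (GRCh38), and 75-mers of each canonical transcript that also occur in another gene were counted. Exons of 24 members overlap a gene on the opposite strand and those of 10 a gene on the same strand, where reads can be shared. The result of 1 other list of the pathway is not reported here.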

Additional observations from a re-analysis of the deposited data

Results flagged for a closer look

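TNNT1 moved in opposite directions in the comparisons with Control, below Control with every hairpin and above it in every Soft library. The direct test of the difference gave a log2 fold change of 1.92 for Soft against sh_PIP4K2B (adjusted p = 1.0e-04, edgeR).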

How the results depend on the processing

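Of 138 fold changes of members over the 3 comparisons 32 passed the threshold, and 0 of these had the other sign under any alternative, while the counts of calls moved. With hairpins 3 members were lower, and 11 with DESeq2, 1 with voom, 1 in the replicate block, 0 in the fit of the 2 conditions and 11 at 0.05. In Soft 2 were higher, and 0 with no filter on low counts, 4 with DESeq2, 7 with voom, 0 in the replicate block, 8 in the fit of the 2 conditions and 5 at 0.05. The 17 lower in Soft were 34 with voom, 35 in the fit of the 2 conditions and 26 at 0.05. For Soft against sh_PIP4K2B the 7 lower were 12 with DESeq2, 2 in the fit of the 2 conditions and 13 at 0.05. The replicate block rests on numbers that were not taken as pairs. Over all genes with hairpins the calls (higher and lower) were 381 and 382 with edgeR, 1087 and 979 with DESeq2, 162 and 157 with voom, 135 and 160 in the replicate block and 5 and 0 in the fit of the 2 conditions, and in Soft 2181 and 2036 with edgeR, 4892 and 4753 with voom and 4818 and 4783 in the fit of the 2 conditions. For Soft against sh_PIP4K2B they were 1998 and 2137 with edgeR, 1140 and 1425 with voom and 1081 and 1102 in the fit of the 2 conditions. The median of the members in Soft, -0.62, was -0.52 with scaling by library size only and -0.57 with upper quartile scaling. Library size scaling moved the median of all genes from 0.05 to 0.14 with hairpins and from 0.01 to 0.12 in Soft, where the calls became 2484 higher and 1468 lower, so these differences are relative to that shift. The cause of these moves was not tested.

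When each library was left out in turn, members higher with hairpins numbered 0 to 1 and lower 0 to 16 (0 without any Control library, 1 without any Soft library, 16 without hairpin #2, 7 without #1 and 9 without #3). These fits tested 13950 to 13998 genes. Of all genes 35 to 93 were lower without a Control library and 176 to 195 without a Soft library, and the shares without each hairpin are given above. In Soft 0 to 6 were higher and 9 to 28 lower (28 without hairpin #1 and 9 to 10 without a Control or Soft library), with a median of -0.64 to -0.58. Without hairpin #1 3205 of all genes were lower, and without a Control or Soft library 1158 to 1366. For Soft against sh_PIP4K2B 2 to 7 were higher (7 without hairpin #2) and 2 to 19 lower (19 without hairpin #1 and 2 without any Soft library). Of all genes 2265 were higher without hairpin #2, 2884 lower without hairpin #1 and 1159 to 1185 lower without a Soft library. The median of the members was -0.46 to -0.22 with hairpins and -0.41 to -0.033 for Soft against sh_PIP4K2B. Where leaving out 1 library left a condition with 2, the fit shared the spread of the others.

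Fold changes that changed sign belonged to members that had not passed. With hairpins these were MYLK (-0.094 with voom, -0.0069 in the replicate block), LIMK2 (-0.049 and -0.020 in the same fits), MKL2 (0.017) and DIAPH2 (0.081), both with library size scaling. In Soft they were CNN1 (0.055 with library size and 0.0028 with upper quartile scaling), MKL1 (-0.014 with no filter, -0.0070 with DESeq2 and -0.0032 in the fit of the 2 conditions) and LIMK2 (0.00052 with library size scaling). For Soft against sh_PIP4K2B they were ACTG1 (0.016 with voom) and MYL6 (0.023 with upper quartile scaling). With 1 library left out, log2 fold changes that crossed 0 ran with hairpins ACTA2 -0.92 to 0.22, CNN1 -1.81 to 0.37, MYL12A -0.39 to 0.093, MYL12B -0.64 to 0.20, MYLK -0.34 to 0.50, TPM1 -0.87 to 0.012, TPM4 -0.41 to 0.16, SRF -0.039 to 0.16, MKL1 -0.36 to 0.058, MKL2 -0.25 to 0.15, CFL2 -0.63 to 0.055, LIMK2 -0.26 to 0.28, DSTN -0.27 to 0.025 and DIAPH2 -0.063 to 0.091, in Soft CNN1 -0.26 to 0.31 and MKL1 -0.021 to 0.022, and for Soft against sh_PIP4K2B ACTG1 -0.40 to 0.42, ACTG2 -0.72 to 0.015, ACTN4 -0.058 to 0.15, CNN1 -0.44 to 1.74, CNN3 -0.42 to 0.18, MYL6 -0.25 to 0.13, MYH9 -0.089 to 0.34, MYLK -0.00089 to 0.85, TPM2 -0.43 to 0.19, TPM3 -0.38 to 0.034, TPM4 -0.46 to 0.12, MKL1 -0.069 to 0.36, CFL1 -0.28 to 0.73, LIMK2 -0.40 to 0.15 and PFN2 -0.53 to 0.066.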
